A study of Homo sapiens with 12 samples.

Results

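Ceruloplasmin, encoded by CP, and 9 further genes of iron uptake, storage, export and sensing were followed across 3 Du145 lines and across BRPF1 knockdown. The 10 genes are CP, HEPH, TFRC, FTH1, FTL, SLC40A1, SLC11A2, SLC39A14, STEAP3 and IREB2, matched by symbol to their Ensembl identifiers among the 60616 genes of both deposited tables. CP was selected on its measured rise in the docetaxel-resistant line over parental cells, so its values in the 3 lines are a description with no test. The others were listed for what they do in iron handling, and 9 of the 10 genes, all but HEPH, had enough counts to be tested in each experiment.

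Du145 is a human prostate cancer cell line. The parental cells (Du145-P) were passaged alongside the selection and are labelled as untreated. The resistant lines Du145-DtxR and Du145-CbzR, called DtxR and CbzR here, were derived from them by 72 h exposures to docetaxel or cabazitaxel, taxanes that stabilize microtubules, at doses rising from 1 nM to 125 nM. Each of the 3 lines was represented by 2 RNA-seq libraries. In the other experiment, DtxR cells received a control siRNA (siControl) or an siRNA against BRPF1 (siBRPF1), a bromodomain protein that scaffolds histone acetyltransferases, with 3 libraries each. The siRNA medium was removed after 24 h and RNA was taken 48 h later, so all 6 of those libraries come from docetaxel-resistant cells. Each resistant line is 1 derived line, and the methods of the study call the libraries of a group biological replicates without saying how they were cultured apart. The p-values therefore cover how much these libraries vary, and say nothing of how lines selected anew would vary.

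Iron enters most cells bound to transferrin through the transferrin receptor, is reduced in the endosome by a STEAP ferrireductase and leaves it through the divalent metal transporter encoded by SLC11A2. What is not used is stored in ferritin, a shell built of heavy and light chains, and the known cellular iron exporter is ferroportin, encoded by SLC40A1. Ferroportin works with a copper-bearing ferroxidase, either ceruloplasmin or its membrane-bound relative hephaestin, which oxidizes the iron as it leaves. Most ceruloplasmin is made by the liver and secreted into plasma, where it carries most of the copper. Iron regulatory proteins sense cellular iron and bind a hairpin, the iron-responsive element (IRE). At the 5′ end of an mRNA this binding blocks translation, and at the 3′ end it protects the mRNA from decay.

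The hairpin is shown here for the members that carry it, because they are read by the same proteins and did not move alike in the lines. It was searched for as an unpaired C, 5 paired bases, the loop CAGTGN with A, C or T as its last base, and 5 bases that pair with the first 5, G with T allowed. The search covered the untranslated regions of the representative transcripts in GENCODE 44 (GRCh38), on the strand of the transcript. Capitals mark the unpaired C and the loop, and each line is written 5′ to 3′.
FTH1, 5′ UTR, chr11:61967574-61967603, minus strand: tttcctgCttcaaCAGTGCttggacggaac
FTL, 5′ UTR, chr19:48965334-48965363, plus strand: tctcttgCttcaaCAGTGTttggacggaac
SLC40A1, 5′ UTR, chr2:189580661-189580690, minus strand: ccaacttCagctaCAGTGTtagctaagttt
TFRC element 1, 3′ UTR, chr3:196050979-196051008, minus strand: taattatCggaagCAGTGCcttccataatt
TFRC element 2, 3′ UTR, chr3:196050575-196050604, minus strand: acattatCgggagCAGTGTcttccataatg
TFRC element 3, 3′ UTR, chr3:196050510-196050539, minus strand: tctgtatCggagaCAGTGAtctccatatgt
TFRC element 4, 3′ UTR, chr3:196050463-196050492, minus strand: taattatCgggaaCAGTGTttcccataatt
The elements of FTH1 and FTL are identical at 27 of 30 bases, while that of SLC40A1 shares 13 of 30 with FTH1. The 4 elements of TFRC share between 18 and 25 of 30 bases with each other. A match was found in 11 of 18763 representative 5′ untranslated regions (0.0586%) and in 97 of 18780 at the 3′ end (0.517%), so a match by letters alone is a description and not a site. None of the untranslated regions of CP, HEPH, IREB2, SLC39A14 or STEAP3 held a match to this pattern, and none of 16 coding transcripts of SLC11A2 with a 3′ untranslated region did.

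The libraries held between 27512422 and 30593573 estimated counts in the lines and between 16667822 and 17306275 in the siRNA experiment. Levels are given in CPM, counts scaled by TMM to a common library size, and the experiments were scaled separately. BRPF1 was 29.4, 30.6 and 31.0 CPM in siControl and 8.96, 8.67 and 8.19 CPM in siBRPF1, a fall by 1.82 on the log2 scale (standard error, SE, 0.10, adjusted p = 1.79e-06 in edgeR's quasi-likelihood test). Reads of mitochondrial genes made up 14.3% and 15.3% of parental cells, 8.91% and 9.48% of DtxR and 12.1% and 12.7% of CbzR, and between 11.4% and 16.6% of the siRNA libraries. With these genes removed before scaling, the counts of members called stayed at 8, 7, 8 and 2 in the comparisons below. Of 5 epithelial markers 4 or 5 averaged at least 1 CPM in every group, but their levels differed. CDH1, the adhesion protein E-cadherin, averaged 36.9 CPM in parental cells, 1.40 in DtxR and 0.715 in CbzR, and KRT19, a keratin, averaged 33.2, 178 and 6.37 CPM. In siControl and siBRPF1 CDH1 averaged 3.59 and 0.508 CPM and KRT19 114 and 154 CPM. The part of these markers in the results was not tested. The prostate luminal markers KLK2 and FOLH1 were at 0 in every library, KLK3 at most at 0.0590 CPM and TMPRSS2 at most at 0.0332 CPM. The 10 hepatocyte markers summed to between 0.897 and 3.10 CPM, with APOA2 and APOB at 0 in every library. Endothelial markers summed to at most 0.821 CPM and fibroblast markers to at most 12.5 CPM. Of 5 leukocyte markers only CD68, also a lysosomal protein of other cells, averaged 1 CPM or more, at 17.1 CPM in parental cells, 72.7 in DtxR and 45.1 in CbzR, and its part in the results was not tested.

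CP was nearly silent in parental cells and CbzR and abundant in DtxR. CP (ENSG00000047457, chromosome 3 from 149162410 to 149221829 on the minus strand of GRCh38) was 0.130 and 0.166 CPM in parental cells, 183 and 191 CPM in DtxR, and 0.0974 and 0.0650 CPM in CbzR. The docetaxel-resistant libraries stood far above all 4 others, and the parental and cabazitaxel-resistant libraries were both close to 0. Behind these levels were 9 counts over both parental libraries, 10142 over DtxR and 5 over CbzR. The ratio of summed counts per library size was 1265-fold for DtxR over parental cells, with a 95% exact counting interval from 666-fold to 2768-fold that covers counting error only. For CbzR over parental cells the ratio was 0.55, with a counting interval from 0.145 to 1.83. In RNA from a whole culture, fewer cells with CP and less CP RNA per cell cannot be told apart.

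The siRNA libraries, which played no part in choosing CP, also came from docetaxel-resistant cells and also held CP at a high level. CP was 123, 111 and 111 CPM in siControl and 91.6, 88.1 and 93.1 CPM in siBRPF1. Every siBRPF1 library lay below every siControl library. Levels of the 2 experiments are set side by side without a test, since the tables were scaled separately and the cells handled differently.

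Among the 10 genes, compared per kb of exonic length, CP moved from near the bottom to the upper part of the order. This length joins the annotated exons of all transcripts of a gene, so it can exceed that of a single mRNA. It was 17376 bases for TFRC, 7072 for CP, 2004 for FTH1 and 871 for FTL, and the order depends on it. In DtxR CP reached 26.4 ± 0.856 CPM per kb (SD, n = 2), below SLC39A14 at 70.7 ± 1.67 and above TFRC at 19.9 ± 1.36 and STEAP3 at 17.95 ± 0.10. In CPM, without the length, TFRC at 345 ± 23.7 lay above CP at 187 ± 6.05 in DtxR. In Du145-P CP was 0.0209 ± 0.00360 CPM per kb and only HEPH, at 0, was lower. Both ferritin chains stood at the top in every group, with FTH1 at 1912 ± 60.5 and FTL at 1829 ± 207 CPM per kb in parental cells, which did not differ beyond their spread. In CPM FTH1 was the higher one there, at 3832 ± 121 against 1593 ± 180 for FTL. At the other end of the expressed genes was SLC40A1, at 1.30 ± 0.327 CPM per kb in parental cells. In siControl, CP at 16.2 ± 0.969 CPM per kb (SD, n = 3) was next to STEAP3 at 14.7 ± 0.251, and in siBRPF1 CP at 12.9 ± 0.366 and TFRC at 12.6 ± 1.38 did not differ beyond their spread. In CPM TFRC was above CP in siBRPF1, at 219 ± 24.1 against 90.9 ± 2.59.

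**Figure D1:**
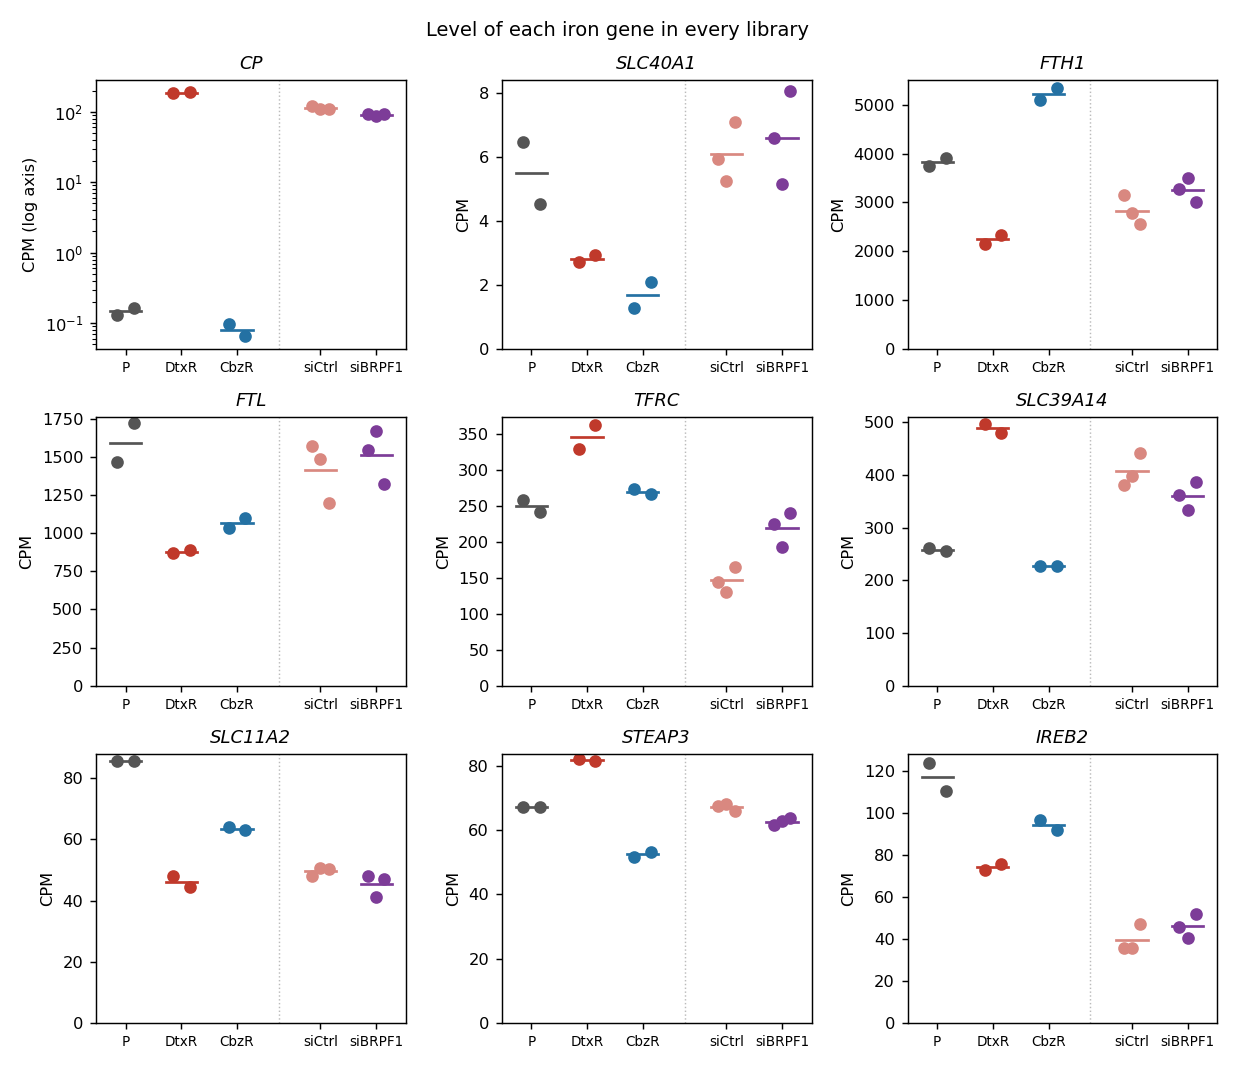
Level of the 9 measured iron genes in every library, in CPM on a linear axis from 0 (CP on a log axis). Points are libraries and bars are group means, with the 3 lines left of the dotted line and the siRNA groups, scaled separately, to its right; CP lies between 88.1 and 191 CPM in all 8 docetaxel-resistant libraries and at or below 0.166 CPM in the other 4.

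HEPH, the other ferroxidase that serves ferroportin, was not detected in most libraries (ENSG00000089472, chromosome X from 66162671 to 66268867). It had 0 counts in every library except 1 count in CbzR replicate 1. A count of 0 over both libraries of a line allows up to 0.0492 CPM in parental cells and 0.0553 CPM in DtxR, taking 3 counts as the limit. In the siRNA groups 0 counts allow up to 0.0600 CPM in siControl and 0.0581 CPM in siBRPF1. Of both ferroxidases only CP was therefore measurable, and only in docetaxel-resistant cells was it above 1 CPM. HEPHL1, another member of this family, and HAMP, the hormone hepcidin that removes ferroportin from the membrane, also had too few counts for a test in either experiment.

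SLC40A1 encodes ferroportin, the exporter that a ferroxidase works with (ENSG00000138449, chromosome 2 from 189560590 to 189583758), and it was low in all lines. It was 6.46 and 4.51 CPM in parental cells, 2.72 and 2.92 CPM in DtxR, and 1.27 and 2.08 CPM in CbzR. The parental libraries were highest and the groups did not overlap. SLC40A1 fell by 0.96 on the log2 scale in DtxR (SE 0.24, adjusted p = 0.00358) and by 1.71 in CbzR (SE 0.25, adjusted p = 0.000123). Without Du145-P replicate 1 the fall in DtxR was by 0.68 and did not pass (adjusted p = 0.0646). CP and SLC40A1 were thus highest in different lines.

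Ferritin parted between the lines. FTH1, the heavy chain with the ferroxidase centre (ENSG00000167996, chromosome 11 from 61959718 to 61967634), was 3746 and 3917 CPM in parental cells, 2149 and 2328 CPM in DtxR, and 5107 and 5355 CPM in CbzR. DtxR was lowest and CbzR highest, with no overlap. FTH1 fell by 0.78 on the log2 scale in DtxR (SE 0.05, adjusted p = 1.40e-07) and rose by 0.45 in CbzR (SE 0.05, adjusted p = 2.74e-05). FTL, the light chain that helps form the mineral core (ENSG00000087086, chromosome 19 from 48965309 to 48966879), was 1465 and 1720.2 CPM in parental cells, 870.3 and 888 CPM in DtxR, and 1036 and 1097 CPM in CbzR. Both resistant lines lay below the parental line. FTL fell by 0.86 in DtxR (SE 0.07, adjusted p = 4.32e-07) and by 0.58 in CbzR (SE 0.07, adjusted p = 2.32e-05).

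The ratio of FTH1 to FTL was therefore near that of the parental cells in DtxR and higher in CbzR. It was 2.56 and 2.28 in parental cells, 2.47 and 2.62 in DtxR, and 4.93 and 4.88 in CbzR. The parental and docetaxel-resistant libraries overlapped and both cabazitaxel-resistant libraries stood above them. For CbzR over parental cells the exact two-sided permutation test gave p = 0.333, the smallest that 2 libraries against 2 allow. The sum of both chains was 5424 ± 302 CPM in parental cells, 3118 ± 139 in DtxR and 6297 ± 218 in CbzR (SD, n = 2 each). Ferritin genes have many processed copies, and 25 FTH1 copies in the tables took between 0.296% and 0.494% of the counts of FTH1 and its copies in the libraries of the lines.

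**Figure D2:**
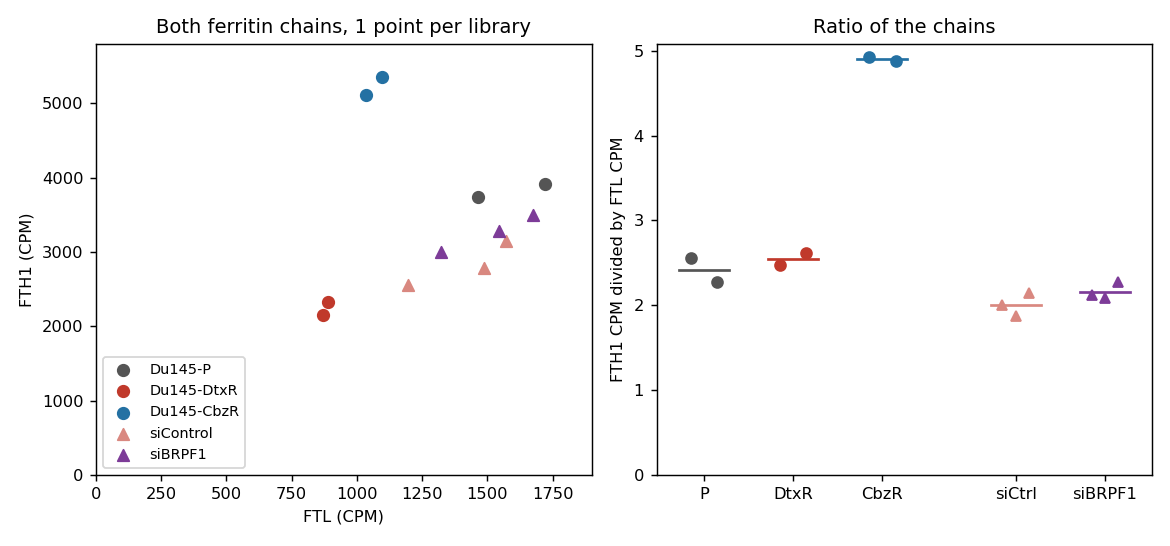
Left, FTH1 against FTL in CPM with 1 point per library, circles for the lines and triangles for the siRNA groups; right, the ratio of the chains by group, with bars at the means. The CbzR libraries sit apart at ratios of 4.93 and 4.88, while every other library lies between 1.87 and 2.62.

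The uptake genes did not move as one group either. TFRC, the transferrin receptor (ENSG00000072274, chromosome 3 from 196012511 to 196082153), was 258 and 241 CPM in parental cells, 328 and 362 CPM in DtxR, and 273 and 266 CPM in CbzR. It was highest in the docetaxel-resistant libraries, and the other lines lay close together. TFRC rose by 0.47 on the log2 scale in DtxR (SE 0.06, adjusted p = 1.73e-05). The difference of 0.11 in CbzR did not pass (SE 0.06, adjusted p = 0.132).

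SLC39A14 encodes ZIP14, a carrier of iron that is not bound to transferrin and of zinc and manganese (ENSG00000104635, chromosome 8 from 22367278 to 22434129). It was 261 and 255 CPM in parental cells, 497 and 480.2 CPM in DtxR, and 227 and 226 CPM in CbzR. Both docetaxel-resistant libraries stood well above the rest. SLC39A14 rose by 0.92 in DtxR (SE 0.05, adjusted p = 8.31e-09) and fell by 0.19 in CbzR (SE 0.05, adjusted p = 0.00438). Without CbzR replicate 1 the fall was by 0.17 and did not pass (adjusted p = 0.0605).

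STEAP3, the endosomal ferrireductase (ENSG00000115107, chromosome 2 from 119223831 to 119265652), was 67.1 and 67.3 CPM in parental cells, 82.2 and 81.6 CPM in DtxR, and 51.7 and 53.4 CPM in CbzR. The lines were separate, with DtxR above and CbzR below the parental cells. STEAP3 rose by 0.28 in DtxR (SE 0.05, adjusted p = 0.000371) and fell by 0.36 in CbzR (SE 0.05, adjusted p = 0.000126). SLC11A2, which encodes the divalent metal transporter DMT1 (ENSG00000110911, chromosome 12 from 50979401 to 51028566), was 85.7 and 85.6 CPM in parental cells, 48.0 and 44.4 CPM in DtxR, and 64.0 and 63.0 CPM in CbzR. Here the parental libraries were highest and the docetaxel-resistant ones lowest. SLC11A2 fell by 0.89 in DtxR (SE 0.06, adjusted p = 6.07e-08) and by 0.43 in CbzR (SE 0.05, adjusted p = 4.12e-05).

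IREB2 encodes iron regulatory protein 2, which binds the hairpins shown above (ENSG00000136381, chromosome 15 from 78437431 to 78501453). It was 124 and 111 CPM in parental cells, 72.7 and 75.7 CPM in DtxR, and 96.7 and 91.8 CPM in CbzR. The groups did not overlap and the parental libraries were highest. IREB2 fell by 0.66 in DtxR (SE 0.06, adjusted p = 1.73e-06) and by 0.31 in CbzR (SE 0.06, adjusted p = 0.000998).

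In DtxR, all 8 tested members other than CP passed at an adjusted p under 0.05, 3 higher (TFRC, SLC39A14, STEAP3) and 5 lower (FTH1, FTL, SLC40A1, SLC11A2, IREB2). Over all 18218 genes tested in this comparison 63.1% passed, 31.1% higher and 32.0% lower. The median absolute log2 fold change was 0.82 over the 8 members and 0.46 over all genes. In CbzR, 7 of the 8 passed, 1 higher (FTH1) and 6 lower, against 50.7% of all genes (24.4% higher and 26.3% lower), and the median absolute log2 fold changes were 0.39 and 0.32. None of the 8 in DtxR and 1 in CbzR, SLC40A1, also had a log2 fold change above 1 or below -1, as 20.4% and 11.6% of all genes had. The comparisons share the parental libraries.

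Compared with each other, CbzR and DtxR differed at all 8 of these members, 4 higher and 4 lower in CbzR, where 63.0% of all genes passed (31.2% higher and 31.8% lower). FTH1 was higher in CbzR by 1.22 on the log2 scale (SE 0.05, adjusted p = 2.87e-09), and SLC11A2 (0.46), IREB2 (0.35) and FTL (0.28) were higher by less. SLC39A14 was lower in CbzR, with a log2 fold change of -1.11 (SE 0.05, adjusted p = 1.48e-09), as were SLC40A1 (-0.75), STEAP3 (-0.64) and TFRC (-0.36). Of these, SLC40A1 lost the call when either DtxR library or CbzR replicate 1 was left out (log2 fold change -0.42 and adjusted p = 0.214 without the latter). FTH1 and SLC39A14 also passed a log2 fold limit of 1, as 20.9% of all genes did.

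**Figure D3:**
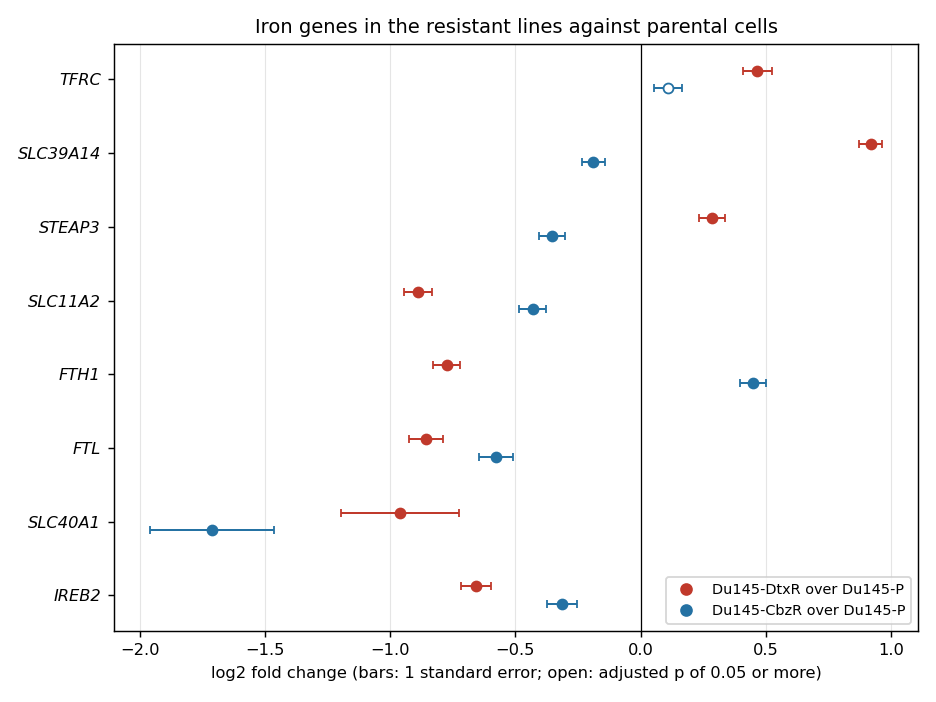
Log2 fold change of the 8 tested members other than CP in DtxR (red) and CbzR (blue) over the same parental libraries; bars are 1 SE and open points did not pass at an adjusted p of 0.05. SLC39A14 (0.92 and -0.19), STEAP3 (0.28 and -0.36) and FTH1 (-0.78 and 0.45) lie on opposite sides of 0 in the resistant lines.

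The genes around CP were examined for a shared rise. Of 32 annotated genes whose left end lies within 500 kb of that of CP, 8 were tested, and in DtxR 2 of them were higher and 4 lower than in parental cells, where 31.1% of all genes were higher and 32.0% lower. HPS3, a subunit of a complex that forms lysosome-related organelles, overlaps CP by 11323 bases on the opposite strand, and whether the counting used strand is not given in the sources used here. HPS3 was 97.9 ± 2.82 CPM in parental cells, 87.9 ± 2.60 in DtxR and 72.9 ± 3.16 in CbzR (SD, n = 2 each). CP averaged 0.148 CPM in Du145-P, and whether reads of HPS3 were counted for CP was not tested. GYG1, which primes glycogen synthesis, rose by 0.34 on the log2 scale in DtxR (SE 0.08, adjusted p = 0.00260), and WWTR1, the transcriptional coactivator TAZ, rose by 0.18 (SE 0.05, adjusted p = 0.00855). HLTF, a chromatin remodeller, fell by 0.22 and HPS3 by 0.16. TM4SF1, a tetraspanin-like membrane protein, fell by 0.87 in DtxR (SE 0.04, adjusted p = 1.23e-08) and rose by 1.73 in CbzR (SE 0.04, adjusted p = 1.23e-10). Its antisense neighbour TM4SF1-AS1 fell by 3.45 in DtxR (SE 0.29), from 2.46 CPM. UBQLN4P1, with a log2 fold change of 0.20, and WWTR1-AS1, at -0.34, did not pass. No tested neighbour rose in DtxR by more than 0.34. Among those with too few counts for a test, the pseudogene CPHL1P averaged 0.0162 CPM in parental cells, 0.184 in DtxR and 0.0162 in CbzR. TM4SF18 went the other way, at 0.197, 0.0184 and 0.0650 CPM.

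**Figure D4:**
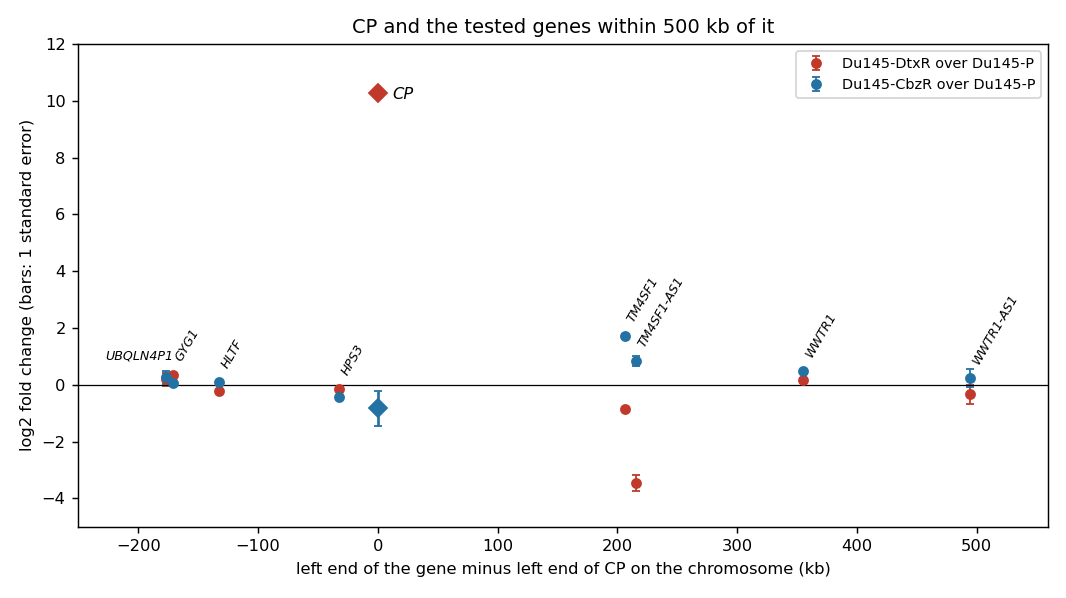
Log2 fold change over parental cells of CP (diamonds) and of the 8 tested genes within 500 kb (circles), against the distance between left ends on the chromosome in kb, with bars of 1 SE. CP in DtxR (red) is at 10.26, from 9 counts in parental cells, while its neighbours lie between -3.45 and 0.34; CbzR is in blue.

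Among 12549 genes tested in both experiments and reaching a mean of 5 CPM in some group, the pattern most like that of CP was that of C4orf19, by Euclidean distance over 3 log2 fold changes (DtxR and CbzR over parental cells, siBRPF1 over siControl). C4orf19 averaged 0.0162 CPM in parental cells, 9.23 in DtxR and 0 in CbzR, at a distance of 2.13. Next were GJA1, the gap junction protein connexin 43, at 4.35, and ADGRV1, an adhesion receptor, at 4.40. GJA1 averaged 0.590 CPM in parental cells, 36.2 in DtxR and 0.422 in CbzR. SKAP1, a signalling adaptor, and BST1, an ectoenzyme, followed at 5.402 and 5.798. None of these 5 genes is on chromosome 3.

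BRPF1 knockdown in DtxR moved 2 of the 9 tested members. CP, from the values above, fell by 0.33 on the log2 scale (SE 0.08, adjusted p = 0.0107), to 90.9 ± 2.59 CPM from 115 ± 6.85 (SD, n = 3 each). Without siBRPF1 replicate 1 the fall was by 0.34 and did not pass (adjusted p = 0.0546). No siBRPF1 library was below 88.1 CPM. TFRC was 144, 131 and 165 CPM in siControl and 224, 192 and 239 CPM in siBRPF1. All siBRPF1 libraries lay above all siControl libraries, and TFRC rose by 0.58 (SE 0.11, adjusted p = 0.00288). Over the 15704 genes tested 26.7% passed, 11.6% higher and 15.1% lower, so 2 of 9 is no more than the share over all genes. Neither had a log2 fold change beyond 1, as 3.83% of all genes had.

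The ferritin chains did not pass. FTH1 was 3148, 2788 and 2558 CPM in siControl and 3277, 3494 and 3006 CPM in siBRPF1, and the groups overlapped (log2 fold change 0.20, SE 0.09, adjusted p = 0.134). Without siControl replicate 1 it passed, at 0.29 (adjusted p = 0.0413). FTL was 1570.0, 1487 and 1195 CPM in siControl and 1543, 1673 and 1323 CPM in siBRPF1, also with overlap (log2 fold change 0.09, adjusted p = 0.577). Their ratio was 2.01 ± 0.133 in siControl and 2.16 ± 0.0974 in siBRPF1 (SD, n = 3 each, exact two-sided permutation p = 0.30, where 3 against 3 cannot go below 0.1).

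The other members did not pass either. SLC39A14 was 381, 398 and 441 CPM in siControl and 362, 332 and 386 CPM in siBRPF1 (log2 fold change -0.17, adjusted p = 0.166), with the highest siBRPF1 library above the lowest siControl one. SLC11A2 was 47.9, 50.7 and 50.2 CPM against 47.9, 41.2 and 47.0 CPM (log2 fold change -0.13, adjusted p = 0.309). STEAP3 was 67.7, 68.1 and 66.0 CPM against 61.5, 62.8 and 63.8 CPM (log2 fold change -0.10, adjusted p = 0.352), so its groups were apart but by little. IREB2 was 35.7, 35.8 and 47.0 CPM against 45.6, 40.1 and 51.8 CPM (log2 fold change 0.22, adjusted p = 0.240). Without siControl replicate 3, its highest control library, it passed (log2 fold change 0.36, adjusted p = 0.0270). SLC40A1, at 5.93, 5.26 and 7.09 CPM against 6.60, 5.14 and 8.08 CPM, overlapped throughout (log2 fold change 0.12, adjusted p = 0.665).

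**Figure D5:**
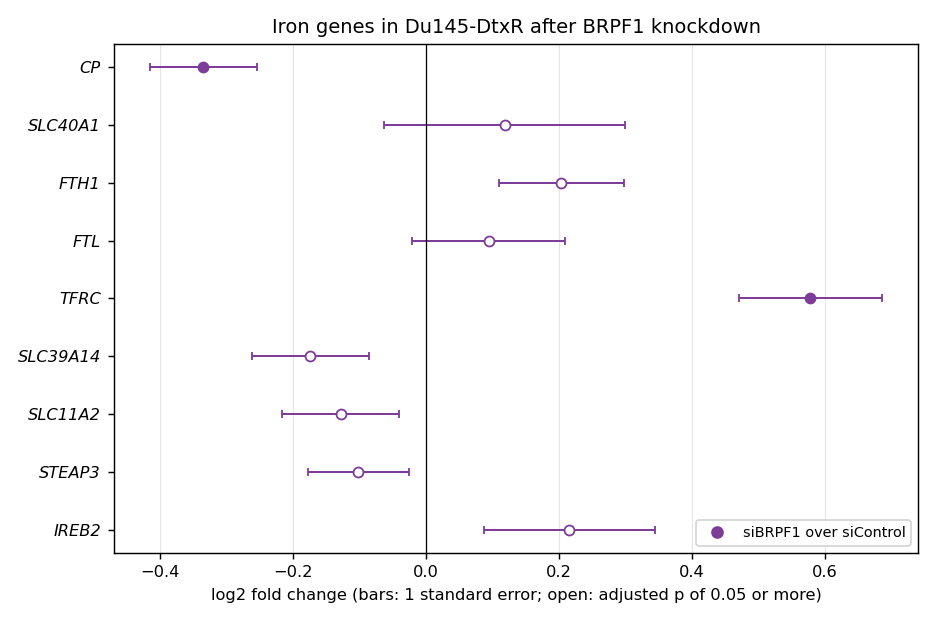
Log2 fold change of the 9 tested members in siBRPF1 over siControl, 3 libraries each, with bars of 1 SE. Filled points, CP at -0.33 and TFRC at 0.58, passed at an adjusted p of 0.05, and the open points did not.

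Values of the tested members in both kinds of comparison are set side by side here, with no test between experiments. TFRC was higher in DtxR than in parental cells (0.47) and higher in siBRPF1 than in siControl (0.58). Whether they form a single rise cannot be told, since the experiments were scaled separately. TFRC averaged 250 CPM in parental cells and 345 in DtxR, but 147 in siControl and 219 in siBRPF1. SLC40A1 (2.82 and 6.09 CPM), IREB2 (74.2 and 39.5 CPM) and FTL (879 and 1417 CPM) also differed between DtxR and siControl. CP was 187 and 115 CPM, FTH1 2239 and 2831, SLC39A14 488 and 407 and STEAP3 81.9 and 67.3. SLC11A2 (46.2 and 49.6 CPM) was close. In parental cells FTL averaged 1593 CPM and FTH1 3832 CPM, so both were nearer to parental cells in siControl than in DtxR. The cause of the differences between DtxR and siControl was not tested. CP was far higher in DtxR and lower after knockdown (-0.33). No other member passed in the siRNA experiment in the main fit, while FTH1, IREB2 and SLC39A14 passed when replicate number was a term.

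Beyond the 10 members, 11 further genes of iron uptake and reduction were tested in the lines, and more of them were lower than higher in both. In DtxR 3 were higher and 6 lower, beside 31.1% and 32.0% of all genes, with a median log2 fold change of -0.66, where the median over all genes was -0.02. SLC22A17, a receptor for the siderophore carrier lipocalin 2, was 1.09 ± 0.0300 CPM in DtxR against 15.2 ± 1.39 in parental cells and fell by 3.80 on the log2 scale (SE 0.14, adjusted p = 5.67e-10). LRP1, which takes up heme bound to hemopexin among many other ligands, fell by 1.87 (SE 0.07, adjusted p = 4.79e-10). The 3 that rose were STEAP1 (1.47), a relative of STEAP3 without its NADPH-binding domain, SLC39A8 (0.74), the closest relative of SLC39A14, and STEAP2 (0.48). In siControl, also DtxR cells but scaled separately, SLC22A17 averaged 9.71 CPM. LRP1 averaged 231 CPM in parental cells, 63.3 in DtxR and 121 in siControl. In the same groups SLC39A8 averaged 90.8, 152 and 71.2 CPM, STEAP1 7.86, 21.8 and 15.5 CPM, and STEAP2 30.1, 41.9 and 33.4 CPM. These differences between the experiments were not tested. In CbzR 1 was higher, SLC22A17 (0.50), and 8 were lower, among them CYBRD1, a surface ferrireductase, at -1.60 (SE 0.06) and STEAP2 at -0.91 (median -0.69 over the 11). Of all genes 24.4% were higher and 26.3% lower in CbzR. After BRPF1 knockdown 8 were tested, none was higher and 5 were lower (11.6% and 15.1% of all genes), with SLC22A17 at -0.86, LRP1 at -0.51, SLC39A8 at -0.40, STEAP2 at -0.37 and MELTF, the membrane-bound melanotransferrin, at -0.36.

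Of the ferritin chaperones and the receptor that delivers ferritin to lysosomes, PCBP1 passed in no comparison (log2 fold change 0.09 in DtxR and 0.12 in CbzR). NCOA4 was 226 ± 3.49 CPM in parental cells and 238 ± 12.3 in DtxR (log2 fold change 0.08, adjusted p = 0.196), and in CbzR it fell by 0.17 (SE 0.05, adjusted p = 0.0138). PCBP2, an iron chaperone and RNA-binding protein, fell by 0.53 in DtxR (SE 0.05, adjusted p = 9.37e-07) and rose by 0.17 in CbzR, the same directions as FTH1. HERC2, part of the machinery that degrades NCOA4, was the member of this list that rose after knockdown (0.36, adjusted p = 0.0286).

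Of the genes of iron sensing and hepcidin control other than IREB2, 11 were tested in each experiment. In DtxR 2 were higher and 6 lower, where 63.1% of all genes passed. ACO1, which encodes iron regulatory protein 1, rose by 0.50 (SE 0.06, adjusted p = 1.28e-05) while IREB2 fell, and BMP6, a secreted inducer of hepcidin, rose by 1.15 (SE 0.07, adjusted p = 7.49e-08). Of the 11 genes, 1 was higher and 4 were lower after BRPF1 knockdown, beside 11.6% and 15.1% of all genes. ACO1 and BMP6 were lower after knockdown, ACO1 by a log2 fold change of -0.41 and BMP6 of -0.89. ACO1 averaged 51.8 CPM in parental cells, 73.1 in DtxR and 47.2 in siControl, which was scaled separately. BMP6, the inducer of hepcidin, averaged 13.3, 29.5 and 27.9 CPM in these groups. NEO1 (-0.65), a coreceptor of this pathway, and SMAD6 (-1.03), one of its inhibitors, were lower in DtxR. In CbzR 3 were higher and 3 lower, where 50.7% of all genes passed. HFE, the protein altered in hereditary iron overload, was the member that rose after knockdown (0.77, adjusted p = 0.00257) and was higher in CbzR (0.65) and lower in DtxR (-0.30).

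Ceruloplasmin is loaded with copper by ATP7B in the liver and by ATP7A elsewhere, so 12 genes of copper handling were examined too. In DtxR 3 were higher and 3 lower, or 6 of 12, against 63.1% of all genes. ATP7A was 3.00 ± 0.871 CPM in DtxR against 16.8 ± 1.98 in parental cells and fell by 2.48 (SE 0.15, adjusted p = 4.32e-08). ATP7B was 11.7 ± 1.47 CPM against 16.1 ± 0.288 and fell by 0.46 (SE 0.09, adjusted p = 0.00113). SLC31A1, the high-affinity copper importer CTR1, rose by 0.74 in DtxR (SE 0.05, adjusted p = 1.80e-07) and fell by 0.97 in CbzR (SE 0.06, adjusted p = 7.58e-08). SCO1, which delivers copper to cytochrome oxidase, rose by 0.39 in DtxR. After BRPF1 knockdown 1 gene of the list was higher, COMMD1 (0.43), and 1 lower, ATP7B (-0.44), where 26.7% of all genes passed.

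CP and SLC39A14 also belong to the acute-phase genes that inflammation raises in the liver, and most other tested genes of that list were lower in DtxR. Of 20 genes 7 were tested in the lines, and without CP and SLC39A14 1 of the remaining 5 was higher and 4 were lower, beside 31.1% and 32.0% of all genes. The 4 lower genes were C3, a complement factor (-2.99, from 1.79 ± 0.275 CPM in parental cells), SAA1 (-2.57), SERPINA1 (-1.78) and ITIH4 (-0.64). FGB, a fibrinogen chain, was the higher one, at 1.46 ± 0.865 CPM in DtxR against 0.0166 ± 0.0235 in parental cells. Its DtxR libraries were apart, at 0.845 and 2.07 CPM, and CbzR averaged 0.536 CPM. In the siRNA libraries, also docetaxel-resistant cells, FGB had 0 counts over siControl and 1 over siBRPF1. All 5 were at 2.15 CPM or less in every line on average, and HP, CRP, ORM1 and ORM2 had too few counts for a test.

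Of the mRNAs known for an IRE at the 5′ end, the members FTH1, FTL and SLC40A1 were lower in DtxR, as described above. EPAS1, the hypoxia-inducible factor HIF-2 alpha, whose representative transcript held no match to the pattern searched, was also lower (-2.52, SE 0.08). EPAS1 was 98.5 ± 3.44 CPM in parental cells, 17.2 ± 1.03 in DtxR and 18.2 ± 1.92 in CbzR. Of 4 mRNAs known for an IRE at the 3′ end, TFRC was higher and SLC11A2 lower in DtxR, and CDC14A (0.12) and CDC42BPA (0.11) did not pass.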

How the data were processed

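RNA-seq of 12 libraries was analysed in 2 experiments. Reads were mapped by the authors with STAR (GENCODE, GRCh38), counted per transcript with Salmon and brought to gene level with tximport; versions are not given in the sources used here. Both deposited tables are named for TPM but hold estimated counts, since their columns sum to different totals. The values were rounded, 44 pseudoautosomal Y rows were merged with their X counterparts, and genes with few counts were removed with filterByExpr (18218 and 15704 genes left). The 6 libraries of each experiment shared 1 fit, scaled by TMM and tested with edgeR 4.0.16 (quasi-likelihood test, R 4.3.3), with Benjamini-Hochberg adjustment over all genes tested. Each standard error (SE) was obtained as log2 fold change over the square root of F, which understates the error of groups with few counts. A member was called at an adjusted p under 0.05.

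The 10 members, the 12 gene lists, the tests and the alternatives were chosen with earlier results of these data known. The genes named are the members, BRPF1, up to 3 genes of each list with the smallest adjusted p and those against its main direction, tested genes within 500 kb of CP, and the 5 genes nearest to CP in 3 log2 fold changes. Other list members, such as NCOA4, MELTF and ATP7B, were named after their values were seen. Coordinates, exonic lengths and IREs come from GENCODE 44, with which 52342 identifiers share the version. Alternatives were DESeq2 1.42.0, its size factors, no filter, a minimum mean of 1 CPM, a log2 fold limit of 1, only the groups compared, replicate number as a term and each library left out. On simulated data with this fit, 85 of 97 tested 4-fold and 70 of 96 tested 2-fold changes were recovered for Du145-DtxR against Du145-P, and 95 of 95 and 78 of 94 for siBRPF1. In these simulations 22 and 15 unchanged genes were called as well. Each fold was given to 100 genes, far fewer than were called in the data. Intervals and floors cover counting error only. Some genes of the marker and gene lists are not reported here.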

Additional observations from a re-analysis of the deposited data

Results flagged for a closer look

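Each of the 8 tested members other than CP responded differently in the resistant lines, as tested directly between them, a comparison in which 63.0% of all genes passed. The log2 fold changes of CbzR over DtxR were 1.22 for FTH1, 0.46 for SLC11A2, 0.35 for IREB2, 0.28 for FTL, -0.36 for TFRC, -0.64 for STEAP3, -0.75 for SLC40A1 and -1.11 for SLC39A14. SLC40A1 did not pass with no filter (adjusted p = 0.0602), without DtxR replicate 1 (0.0625) or 2 (0.0965) or without CbzR replicate 1 (0.214). No group held enough libraries for a check of single outlying libraries.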

How the results depend on the processing

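The counts of members called were 8, 7, 8 and 2 for DtxR over parental cells, CbzR over parental cells, CbzR over DtxR and siBRPF1 over siControl. In the lines they are out of 8 tested members without CP, and in the siRNA experiment out of 9 with CP. With a log2 fold limit of 1 they were 0, 1, 2 and 0. Leaving out 1 library gave 7 to 8, 6 to 7, 7 to 8 and 1 to 3. In the siRNA experiment the log2 fold change of FTL ranged from -0.015 (without siControl replicate 3) to 0.18 and that of SLC40A1 from -0.050 (without siBRPF1 replicate 3) to 0.28, with no call at any of these 4 values. Whether the replicate numbers pair the siRNA libraries was not settled. Same-numbered deviations correlated at 0.073, 0.269 and 0.484, 1 of these under the 0.1 asked for, and different-numbered ones at between -0.459 and 0.291. The main fit therefore used no replicate block. With the replicate block 5 members were called in the siRNA experiment, FTH1 (adjusted p = 0.0124), IREB2 (0.0204) and SLC39A14 (0.0242) in addition, while 6601 genes were called in place of 4189 over all, and the block changed no member's call in the lines. SLC40A1 in CbzR over DtxR did not pass with no filter (adjusted p = 0.0602) or without DtxR replicate 1 (0.0625) or 2 (0.0965). With DESeq2, its size factors, the stricter filter or only the compared groups in the fit, no member's call changed. The cause of these shifts was not tested. CP in the lines rests on 9 and 5 counts in the low groups, and its log2 fold change over parental cells ranged from 10.10 to 10.45 with each library left out.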

Other observations

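Of 17 tested genes of heme synthesis, transport and breakdown, DtxR held 4 at a higher and 8 at a lower level than parental cells, or 70.6% called, near the 63.1% of all genes. HMOX2, the constitutive heme oxygenase, rose by 1.30 on the log2 scale in DtxR (SE 0.07, adjusted p = 1.45e-08), to 46.4 ± 1.45 CPM from 18.8 ± 0.994. SLC48A1, a heme transporter of endosomes, fell by 1.35 (SE 0.07, adjusted p = 1.44e-08). ALAD, an early enzyme of heme synthesis, fell by 0.50 in DtxR and by 0.92 in CbzR. After BRPF1 knockdown 4 were higher and none lower, where 26.7% of all genes passed: ABCB6 (0.45), HMOX1 (0.36), HMOX2 (0.31) and FLVCR2 (0.51).

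All 21 genes of mitochondrial iron and iron-sulfur cluster assembly were tested, and in DtxR 11 were higher and 7 lower, beside 31.1% and 32.0% of all genes. SLC25A37, the mitochondrial iron importer mitoferrin 1, rose by 0.96 (SE 0.05, adjusted p = 2.42e-08) and CISD2, an iron-sulfur protein of the endoplasmic reticulum, by 1.15 (SE 0.06, adjusted p = 7.48e-09). HSPA9, a mitochondrial chaperone, rose by 0.77. Of 9 cytosolic assembly genes 1 was higher (CIAPIN1, 0.42) and 1 lower (CIAO2B, -0.25) in DtxR, where 63.1% of all genes passed. After BRPF1 knockdown 11.6% of all genes were higher and 15.1% lower. Of the 9 genes 3 were higher, NUBP1 (0.71), CIAPIN1 (0.40) and CIAO3 (0.35), and 1 was lower. The lower gene, CIAO2A, which matures iron regulatory protein 1, was 9.72 ± 1.06 CPM against 27.2 ± 1.01 in siControl and fell by 1.48 (SE 0.11, adjusted p = 1.40e-05), while in the lines it averaged between 38.1 and 42.7 CPM.

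A further list held genes of glutathione and lipid peroxide defence together with others, such as TFRC and NCOA4. Of its 14 tested genes 8 were higher and 4 lower in DtxR, beside the same shares of all genes, 31.1% and 32.0%. Without TFRC, which is 1 of the 10 members, 7 of 13 were higher. SLC7A11 and SLC3A2, which together import cystine, rose by 0.89 and 0.97 (SE 0.05 each). SAT1, a polyamine-catabolizing enzyme, fell by 1.29 in DtxR and rose by 0.91 in CbzR. GPX4, which reduces lipid peroxides, fell by 0.54 in DtxR, by 0.31 in CbzR and by 0.38 after knockdown.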
